A study of Oryza sativa Japonica Group with 27 samples.

Results

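The loci described here encode the enzymes of ammonium assimilation in rice: plastid glutamine synthetase GS2 (OS04T0659100), the cytosolic glutamine synthetases GS1;1 (OS02T0735200) and GS1;2 (OS03T0223400), ferredoxin-dependent glutamate synthase Fd-GOGAT (OS07T0658400) and NADH-dependent glutamate synthase NADH-GOGAT1 (OS01T0681900). They were chosen by name for their place in the pathway, as 5 loci whose identifiers, taken before the dash, were looked up among 35679 loci with 42132 transcripts. Rows were found for 4 of the 5. GS2 and GS1;1 are listed with 3 transcripts each, Fd-GOGAT with 2 and GS1;2 with 1, which makes 9 transcripts, and their counts were summed per locus. NADH-GOGAT1 was not analysed here.

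Glutamine synthetase joins ammonium to glutamate to make glutamine, and glutamate synthase passes the amide nitrogen of glutamine to 2-oxoglutarate, which returns glutamate to the cycle. In leaves the plastid enzymes GS2 and Fd-GOGAT are known for recapturing the ammonium that photorespiration releases in light. The cytosolic GS1 enzymes are known for making glutamine for transport, GS1;1 mostly in the shoot and GS1;2 mostly in the root of rice, where NADH-GOGAT1 is also known to act on newly absorbed ammonium.

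The libraries come from Structure-seq2, an assay that maps RNA structure from the positions at which reverse transcription stops on RNA treated with dimethyl sulfate (DMS), a reagent that methylates unpaired adenine and cytosine. All 14 libraries were made from poly(A)-selected RNA of shoots of Oryza sativa subspecies japonica, cultivar Nipponbare, grown in soil to an age of 14 days. The standard protocol, with reverse transcription at 55 °C after denaturation at 90 °C with salt, no biotin, gel (PAGE) purification, T4 DNA ligase and Q5 polymerase, was applied to 2 libraries without DMS and 2 with DMS. The biotin variation, which added biotin and replaced the gels by streptavidin, was likewise applied to 2 libraries without DMS and 2 with DMS. Another 6 kinds had 1 library each, all without DMS, with 1 step altered: biotin only (biotin added, gels kept), Ex Taq (polymerase), Circligase (ligase), low RT denaturation (65 °C without salt), low RT reaction (50 °C) and agarose (last purification). Every library was sequenced with a standard primer, and 13 of the 14, without Circligase, were sequenced again with a custom primer, so the 27 samples are 2 readings of shared libraries. Since no label says that replicates came from different plants, the spread behind the p-values is that among libraries and may be technical.

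Library totals were 29777 to 410068 counts in the standard-primer readings and 27118 to 468337 in the custom-primer readings, and the biotin variation without DMS, replicate 1, was the shallowest in both. Levels are given as CPM, read counts relative to the library's total after scaling by TMM factors, and 1 count was worth between 2.40 and 22.3 CPM in the standard-primer libraries. Because they are not divided by transcript length, levels are compared between libraries and never between loci. All 7 loci listed as markers of green shoot tissue had counts in every library and took 4.79% to 16.5% of the counts with the standard primer. The sum for the 1 root marker was 0, and whether that locus was among those counted was not checked. In bulk RNA, fewer cells of a type and less RNA per cell cannot be told apart.

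GS2, the plastid enzyme, was detected in every library. In the standard protocol its level was 3003 and 3499 CPM without DMS and 2867 and 3166 CPM with DMS. In the biotin variation it was 581 and 1728 CPM without DMS and 1707 and 1893 CPM with DMS. The 4 biotin variation libraries lay below the 4 standard libraries without overlap, and replicate 1 without DMS lay far below the other libraries of its protocol. The means were 1477 ± 603 CPM in the biotin variation and 3134 ± 272 CPM in the standard protocol (SD, n = 4 each). The share of all loci that separate the protocols without overlap was not counted, here or for the loci and readings below.

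The custom-primer reading of the same libraries gave GS2 levels of 2182 and 2109 CPM without DMS and 2072 and 1912 CPM with DMS in the standard protocol. For the biotin variation it gave 844 and 998 CPM without DMS and 799 and 1151 CPM with DMS. Again the protocols did not overlap, with means of 948 ± 160 CPM and 2069 ± 114 CPM (SD, n = 4 each). Both readings share the libraries, so the second repeats the sequencing and not the library preparation.

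Fd-GOGAT, the partner enzyme that takes its electrons from ferredoxin in the plastid, was also present in every library. In the standard protocol its level was 786 and 906 CPM without DMS and 1087 and 949 CPM with DMS. The biotin variation gave 268 and 271 CPM without DMS and 375 and 497 CPM with DMS. All 4 biotin variation libraries were below all 4 standard libraries, with means of 352 ± 108 CPM and 932 ± 124 CPM (SD, n = 4 each). With the custom primer the levels were 422, 404, 629 and 1040 CPM in the biotin variation and 1335, 1106, 1675 and 1508 CPM in the standard protocol, in the order replicates 1 and 2 without DMS and then with DMS. The custom-primer ranges did not overlap either, although replicate 2 of the biotin variation with DMS came close to the lowest standard library.

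GS1;1, the cytosolic isoform known as the main one of rice shoots, did not separate the protocols. Its level was 385 and 216 CPM without DMS and 379 and 259 CPM with DMS in the standard protocol. Biotin variation libraries had 0 and 541 CPM without DMS and 348 and 302 CPM with DMS. The biotin variation held both the lowest and the highest of the 8 values. The 0 came from replicate 1 without DMS, in which a count of 0 allows up to 67.0 CPM (3 counts, counting error only), a limit below the GS1;1 level of every other library. With the custom primer the same library was again at 0, with a limit of 66.7 CPM, and the others ran from 134 to 354 CPM.

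GS1;2, the cytosolic isoform known mainly from rice roots, had few counts. With the standard primer the standard protocol gave 1 and 3 counts in the untreated libraries and 7 and 10 counts after DMS. The biotin variation gave 0 and 1 counts in the untreated libraries and 8 and 4 counts after DMS. The remaining 6 libraries had 0 to 4 counts. Its 49 standard-primer counts in 14 libraries stand beside 924 of GS1;1, 2182 of Fd-GOGAT and 8606 of GS2, which shows the depth behind each locus and not their relative abundance.

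**Figure D1:**
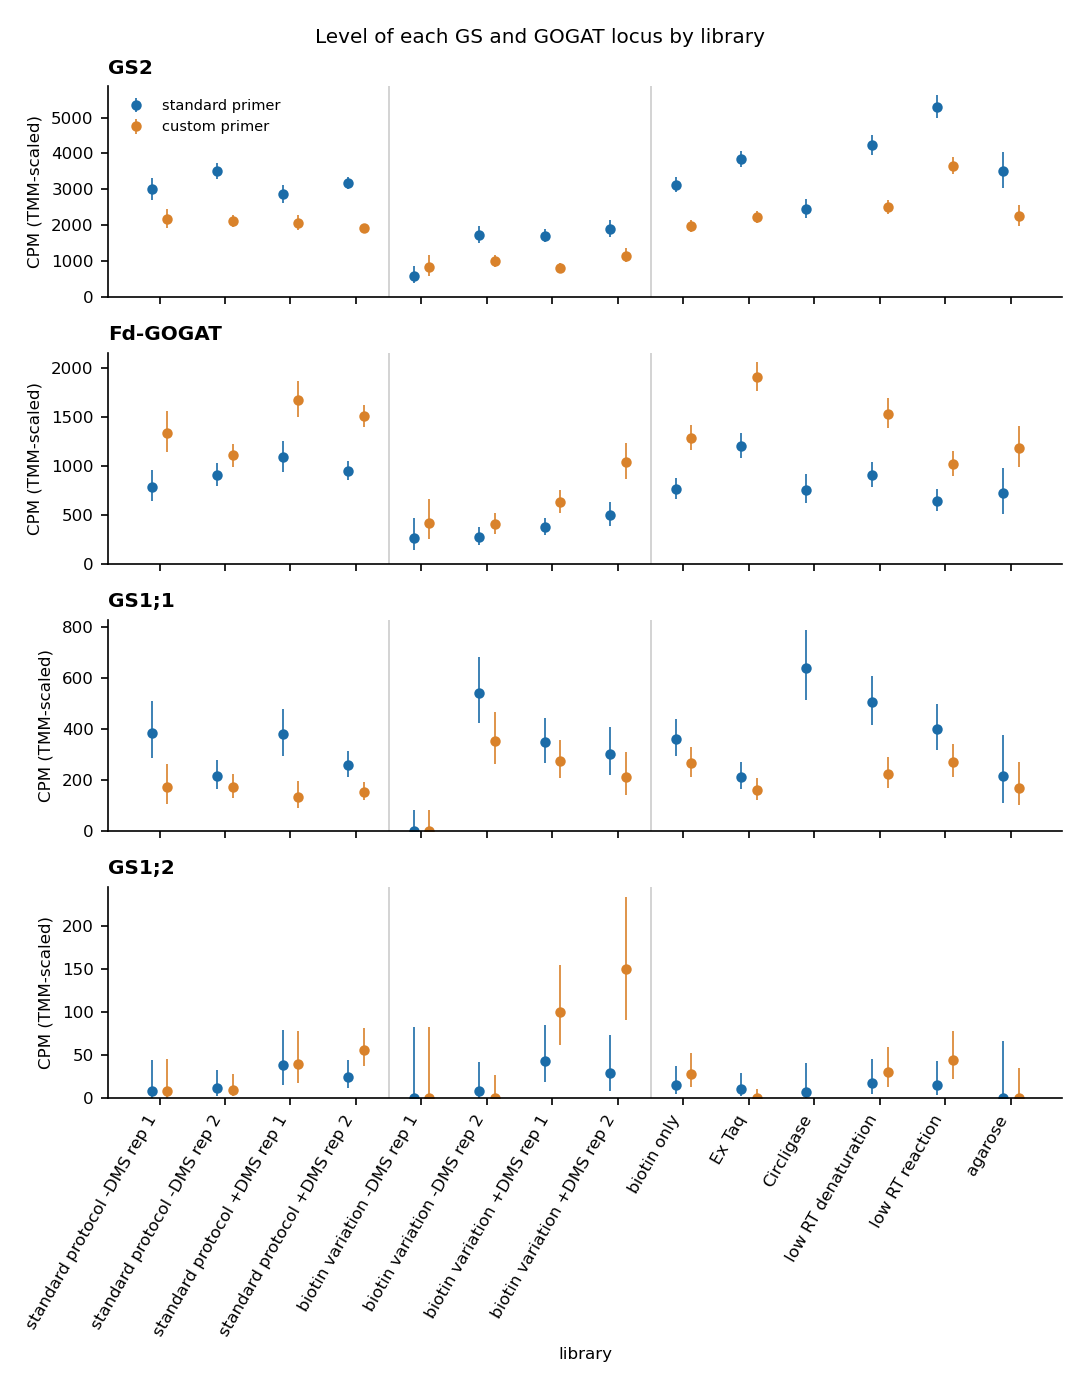
Level of each locus in CPM (y axis, linear, TMM-scaled) in each library (x axis), in blue for the standard and orange for the custom primer, with bars for the exact 95% Poisson interval of the count, which covers counting error only and is too narrow where a read was counted for several transcripts. Grey lines part the standard protocol, the biotin variation and the 6 single libraries; GS2 and Fd-GOGAT are lower in the 4 biotin variation libraries than in the 4 standard ones.

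The biotin variation was compared with the standard protocol over the 8 replicated libraries with DMS as a covariate. Of the 3 members that passed the filter on low counts (10 counts or more in 2 or more of the fitted libraries), 1 passed the test, against a background of 2.98% of all loci (165 of 5530, edgeR's quasi-likelihood test with Benjamini-Hochberg adjustment over all loci, threshold 0.05). Fd-GOGAT was lower, with a log2 change of -1.50 and an SE of 0.37 (edgeR adjusted p = 0.0423). GS2 stood at -1.18 (SE 0.34, edgeR adjusted p = 0.0572), which narrowly missed the threshold, and GS1;1 one of -0.09 (SE 0.61, edgeR adjusted p = 0.949). The median over all loci tested was -0.33, nearer to 0 than the values of GS2 and Fd-GOGAT. GS1;2 did not pass the filter.

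In the custom-primer readings both plastid members passed, with log2 changes of -1.06 for GS2 (SE 0.34, edgeR adjusted p = 0.0272) and -1.18 for Fd-GOGAT (SE 0.36, edgeR adjusted p = 0.0222). The background there was 11.7% (763 of 6514 loci), higher than in the standard reading. The cytosolic members did not pass, with 0.55 for GS1;1 (SE 0.49, edgeR adjusted p = 0.478) and 0.77 for GS1;2 (SE 0.82, edgeR adjusted p = 0.571). DESeq2 on the standard reading called GS2 (-1.27) and Fd-GOGAT (-1.58), where it called 901 loci in all.

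The call of Fd-GOGAT depended on which libraries were used. It was lost when any 1 of 7 of the 8 libraries was left out, each of the 4 standard libraries, replicate 2 of the biotin variation without DMS and both with DMS, with log2 changes from -1.65 to -1.30 and edgeR adjusted p up to 0.127. Without replicate 1 of the biotin variation without DMS, Fd-GOGAT stood at -1.41 (edgeR adjusted p = 0.0140) and GS2 at -0.83 (edgeR adjusted p = 0.0238). Both passed without that library, in a fit that called 10% of all loci (554 of 5521). That library had a TMM factor of 1.503 and 16.5% of its counts in the shoot markers. In the other 3 biotin variation libraries the markers took 7.44%, 8.50% and 6.18%, and in the standard protocol 5.12% to 6.10%. The single libraries Circligase, agarose and low RT reaction, at 6.58%, 6.39% and 6.35%, exceeded the lowest of these biotin variation values. With the custom primer the biotin variation libraries had 13.7%, 5.04%, 5.23% and 3.78%, the last of them within the 3.58% to 4.11% of the standard protocol. The part of the marker share in the result was not tested.

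**Figure D2:**
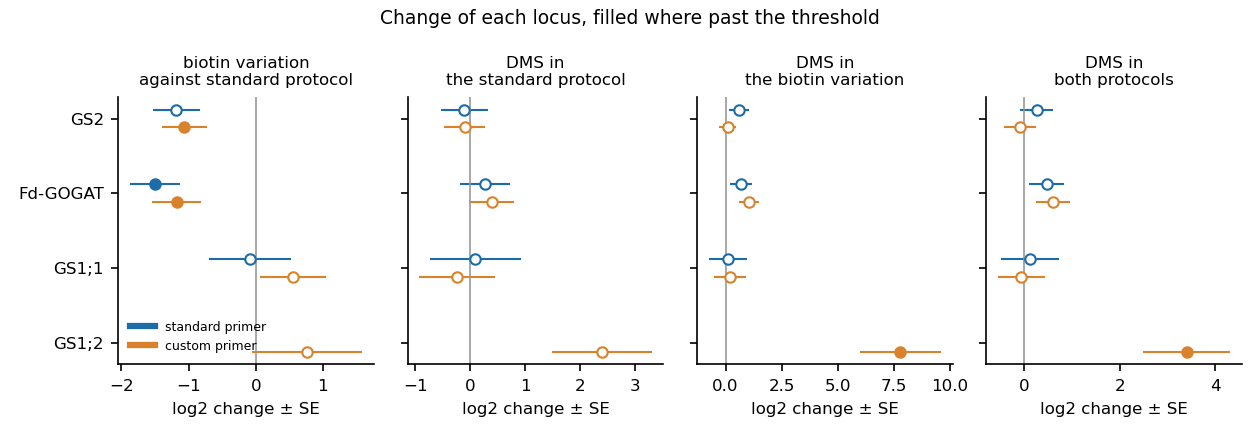
Log2 change of each locus (points, with bars of 1 SE; x axis, log2 scale) for the protocol and for DMS, in blue for the standard and orange for the custom primer, filled where the adjusted p is under 0.05. GS2 and Fd-GOGAT lie between -1.50 and -1.06 for the protocol, and GS1;2 has points for the custom primer alone because it did not pass the filter with the standard primer; its 7.79 in the biotin variation is set against 0 counts and has no fixed size.

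Treatment with DMS did not alter the level of any member past the threshold in the standard-primer libraries. In the standard protocol the log2 changes with DMS were -0.11 for GS2 (SE 0.42), 0.09 for GS1;1 (SE 0.83) and 0.27 for Fd-GOGAT (SE 0.45), each with an edgeR adjusted p of 1. Of these 3 members 0 passed, with 0 at an unadjusted p under 0.05 and 0 by DESeq2, against a background of 0.106% of 6628 loci, or 7 loci. For GS1;1 the SE was several times the size of its change, so a sizeable change was not detectable at this depth.

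In the biotin variation the changes with DMS were 0.60 for GS2 (SE 0.43, edgeR adjusted p = 0.482), 0.10 for GS1;1 (SE 0.85, edgeR adjusted p = 0.974) and 0.68 for Fd-GOGAT (SE 0.49, edgeR adjusted p = 0.482). Again 0 of 3 passed, with 0 at an unadjusted p under 0.05 and 0 by DESeq2, against a background of 0.136% (9 of 6628). The median over all loci was 0.54 in this comparison, close to the values of GS2 and Fd-GOGAT, and it fell to 0.33 with RLE factors and 0.17 with library totals alone. Leaving out replicate 2 without DMS, which leaves the shallow replicate 1 as the only untreated library and assumes that it varies like the other groups, brought GS2 to 1.70 and GS1;1 to 8.97 past the threshold, in a fit that called 567 loci and had a median of 4.32.

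The DMS effect was next compared between the protocols. The differences, biotin variation minus standard protocol, were 0.71 for GS2 (SE 0.61, edgeR adjusted p = 0.656), 0.01 for GS1;1 (SE 1.22, edgeR adjusted p = 0.9999) and 0.42 for Fd-GOGAT (SE 0.67, edgeR adjusted p = 0.838). None of the 3 passed, 0 had an unadjusted p under 0.05 and DESeq2 called 0, against a background of 0.0754% (5 of 6628). Without replicate 2 of the untreated biotin variation the differences of GS2 (1.80) and GS1;1 (8.86) passed, among 276 loci. Over both protocols together the changes with DMS were 0.26 for GS2, 0.12 for GS1;1 and 0.47 for Fd-GOGAT, with 0 of 3 past the edgeR threshold, 0 at an unadjusted p under 0.05 and 0 by DESeq2, against a background of 0.0181% (1 of 5530).

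GS1;2 had more counts in the DMS libraries than in the untreated libraries of the same protocols, although it was too sparse to pass the filter with the standard primer. With that primer the 4 DMS libraries held 29 counts and spanned 24.0 to 42.8 CPM, and the 4 untreated libraries held 5 counts and spanned 0 to 10.96 CPM. Per scaled library size this is a ratio of 3.63 (exact 95% interval 1.39 to 12.01, counting error only). The groups did not overlap, and the share of all loci that separate in this way was not counted for either primer.

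The custom primer found more of its reads: 8 and 27 counts with DMS against 1 and 3 without it in the standard protocol, and 20 and 19 against 0 and 0 in the biotin variation. The DMS libraries spanned 39.7 to 150 CPM and the untreated ones 0 to 9.32 CPM, again without overlap, and their 74 and 4 counts gave a ratio of 11.5 (exact 95% interval 4.32 to 43.5, counting error only). Within the standard protocol the ratio was 5.68 (2.03 to 22.0), and within the biotin variation the level was at least 7.40-fold higher with DMS (3 counts over the untreated group). With the standard primer the ratio was 2.84 (0.927 to 11.6) within the standard protocol and 6.55 (0.969 to 280) within the biotin variation, and both of these intervals include 1. The ratio was thus above 1 in each protocol and reading, but with the standard primer not beyond counting error within a protocol.

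In the custom-primer fits GS1;2 passed the test for DMS in both protocols (log2 change 3.40, SE 0.92, edgeR adjusted p = 0.0354), where the background was 1.17% (76 of 6514), and for DMS in the biotin variation (7.79, edgeR adjusted p = 0.0477), where it was 0.669% (52 of 7777). The size of the latter depends on the prior count, since the untreated libraries were at 0. GS1;2 did not pass within the standard protocol (2.39, SE 0.91, edgeR adjusted p = 0.372). GS1;2 had entered both of the fits that called it only through the DMS libraries. In the fit of all custom-primer libraries, low RT reaction (11 counts) alone of the untreated libraries reached 10 counts, where the filter asks for 2 libraries. In the fit of the 8 libraries the DMS libraries alone reached 10 counts. Neither call can therefore be read as that of a locus chosen without regard to the groups. Without the filter the standard reading gave 2.05 (SE 0.98, edgeR adjusted p = 0.882), and the sum of both readings gave 2.998 (SE 0.88, edgeR adjusted p = 0.262).

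Untreated libraries of other kinds were not all low in GS1;2. With the custom primer low RT reaction had 11 counts (43.7 CPM, exact 95% Poisson interval 21.8 to 78.2), above replicate 1 of the standard protocol with DMS at 39.7 CPM. Biotin only had 9 counts (27.5 CPM) and low RT denaturation 8 counts (30.3 CPM), while Ex Taq and agarose had 0. Untreated levels thus ran up to the lower end of the DMS range.

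Each of the 6 single-library kinds was set beside the 2 untreated standard libraries, with no test. GS2 was highest in low RT reaction, at 5292 CPM (exact 95% Poisson interval 4982 to 5617) against 3003 and 3499 CPM, and it was highest there with the custom primer too, at 3645 CPM (3413 to 3889) against 2182 and 2109 CPM. The second highest level was that of low RT denaturation, at 4226 CPM (3962 to 4502) and, with the custom primer, 2502 CPM (2314 to 2700). These are the libraries in which reverse transcription, or the denaturation before it, ran at a lower temperature. Ex Taq (3832 CPM), agarose (3522 CPM), biotin only (3124 CPM) and Circligase (2464 CPM) followed, and the interval of agarose, 3046 to 4051 CPM, covered most of the standard range.

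Fd-GOGAT did not follow GS2 in these libraries. It was highest in Ex Taq, at 1206 CPM (1085 to 1337) against 786 and 906 CPM in the untreated standard libraries, and at 1904 CPM (1761 to 2056) with the custom primer against 1335 and 1106 CPM. In low RT reaction, where GS2 was highest, Fd-GOGAT was at 644 CPM (539 to 764) and at 1018 CPM (897 to 1150) with the custom primer, below both standard libraries, although with the custom primer the lower of them, at 1106 CPM, lay within its interval. The other 4 kinds had 764 CPM (biotin only), 756 CPM (Circligase), 904 CPM (low RT denaturation) and 719 CPM (agarose). The count ratio of GS2 to Fd-GOGAT was 8.21 in low RT reaction and 3.58 with the custom primer, the highest of all libraries in both readings. In the standard protocol without DMS it was 3.82 and 3.86.

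GS1;1 was highest in Circligase, at 641 CPM (exact 95% Poisson interval 515 to 789), which has no custom-primer reading. It was at 505 CPM (416 to 607) in low RT denaturation, 400 CPM in low RT reaction, 360 CPM in biotin only, 216 CPM in agarose and 213 CPM in Ex Taq. The untreated standard libraries spanned 216 to 385 CPM. With the standard primer the levels other than those of Circligase and low RT denaturation overlapped that range within their intervals. The intervals cover counting error only, not the spread between libraries, and are too narrow where a read was counted for several transcripts. Neither Circligase nor low RT denaturation is thus shown to stand apart. In the custom reading other libraries had intervals beyond the untreated standard levels. There biotin only had 266 CPM (213 to 328) and low RT reaction 270 CPM (210 to 343), above the untreated standard libraries at 170.8 and 170.9 CPM. The custom intervals of low RT denaturation (170.2 to 288.5 CPM), Ex Taq and agarose covered those levels. Over all 14 libraries the level spanned 581 to 5292 CPM for GS2 (median 3064) and 268 to 1206 CPM for Fd-GOGAT (median 760), a 9.11-fold and a 4.50-fold range.

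The plastid to cytosolic ratio was taken as the counts of GS2 per count of GS1;1 and GS1;2 together, which needs no scaling of libraries. It was 7.64 and 15.5 without DMS and 6.87 and 11.2 with DMS in the standard protocol. Under the biotin variation it was 3.15 in replicate 2 without DMS and 4.37 and 5.72 with DMS, while replicate 1 without DMS held 26 counts of GS2 and 0 of the cytosolic loci, a ratio of at least 8.67 (3 counts). Of the biotin variation libraries 3 therefore lay below all 4 standard libraries and 1 within or above them.

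Between protocols the log2 ratio differed by -0.28 (means 2.9998 ± 1.85 and 3.28 ± 0.54, SD, n = 4 each), a difference smaller than the spread (two-sided exact permutation test over 70 divisions, p = 0.829, adjusted over 3 ratio comparisons 0.829). Without replicate 1 of the untreated biotin variation it was -1.19 (exact permutation p = 0.0571 over 35 divisions, the lowest p that these allow). Leaving out replicate 2 without DMS (0.17) or replicate 1 with DMS (0.02) turned the sign. With and without DMS the difference was -0.84 (exact permutation p = 0.611, adjusted 0.829, 36 divisions within protocols, which cannot give a p under 0.05). Without replicate 1 of the untreated biotin variation it was 0.18, so that this library decided its sign.

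With the custom primer the ratio was 12.2, 11.7, 11.9 and 9.15 in the standard protocol, replicates 1 and 2 without DMS first. It was 2.82, 2.13 and 3.17 in the 3 biotin variation libraries with cytosolic counts, and at least 12.7 in the library without any. The same 3 libraries were thus lower than all standard libraries in both readings. Over 13 libraries the custom minus the standard log2 ratio was -0.12 (two-sided exact sign-flip permutation test, p = 0.453, adjusted 0.829). Among the single libraries the ratio ran from 3.80 (Circligase) to 17.2 (Ex Taq) with the standard primer and from 6.73 (biotin only) to 13.9 (Ex Taq) with the custom primer.

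**Figure D3:**
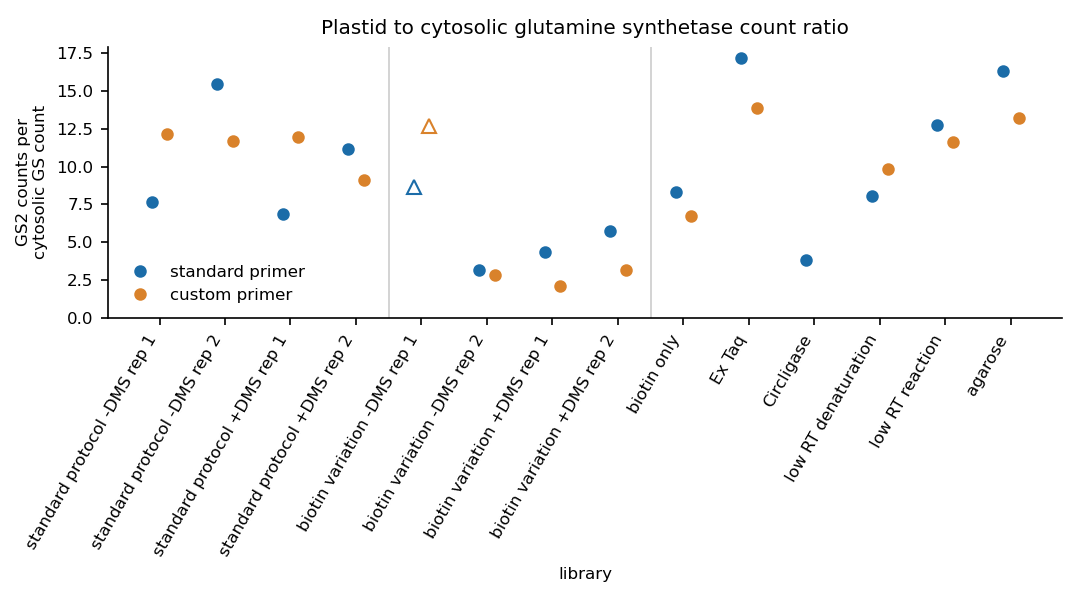
Counts of GS2 per count of GS1;1 plus GS1;2 (y axis, linear) in each library (x axis), in blue for the standard and orange for the custom primer. Open triangles are lower limits for the library with 0 cytosolic counts; the other 3 biotin variation libraries lie between 2.13 and 5.72, below the standard protocol at 6.87 to 15.5.

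The level of the members also depended on the sequencing primer. Over 13 libraries, with library as a block, GS2 was lower in the custom reading by -0.83 on the log2 scale (SE 0.06, edgeR adjusted p = 5e-14) and GS1;1 by -0.85 (SE 0.11, edgeR adjusted p = 3.34e-08). Fd-GOGAT was higher, by 0.51 (SE 0.07, edgeR adjusted p = 4.94e-08), and GS1;2 had 0.73 (SE 0.31, edgeR adjusted p = 0.0596). So 3 of 4 passed, against a background of 39.4% (3503 of 8897 loci).

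The way reads were counted, for which no rule was given, may bear on these signs. In the standard table the 3 transcripts of GS1;1 had counts within 2 of each other in 10 of 14 libraries, and in the custom table in 2 of 13. A chi-square statistic of transcripts by libraries came to 0.0476 per degree of freedom for GS1;1 in the standard table, far less than the 1 that independent counts give, and to 1.23 in the custom table. GS2 and Fd-GOGAT did not show this: their values were 1.43 and 1.70 per degree of freedom in the standard table, with transcripts within 2 counts in 0 and 2 of 14 libraries, and 3.002 and 2.15 in the custom table. The median over loci with several transcripts was 0.485 in the standard table (896 loci) and 1.56 in the custom table (747 loci). For GS1;1, a sum over transcripts in the standard table may thus count a read more than once, and for GS2 and Fd-GOGAT these values do not settle whether it does. Across loci the custom to standard count ratio had a median of 1.77 for those with 1 transcript (1620), 1.02 with 2 (1049) and 0.726 with 3 or more (527).

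Dividing each standard sum by the number of transcripts of its locus, an alternative chosen after seeing the data, turned the sign of GS2 to 0.29 (edgeR adjusted p = 5.87e-05) and of GS1;1 to 0.29 (edgeR adjusted p = 0.0645), and moved Fd-GOGAT to 1.04. That division assumes that every read was counted for each transcript of its locus, which the counts of GS1;1 allow and those of GS2, whose transcripts differ by more than 2 counts in every library, do not bear out in full. Where reads are counted more than once, counting intervals on standard-primer sums are also too narrow. Comparisons within 1 primer table use the same counting in every library.

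**Figure D4:**
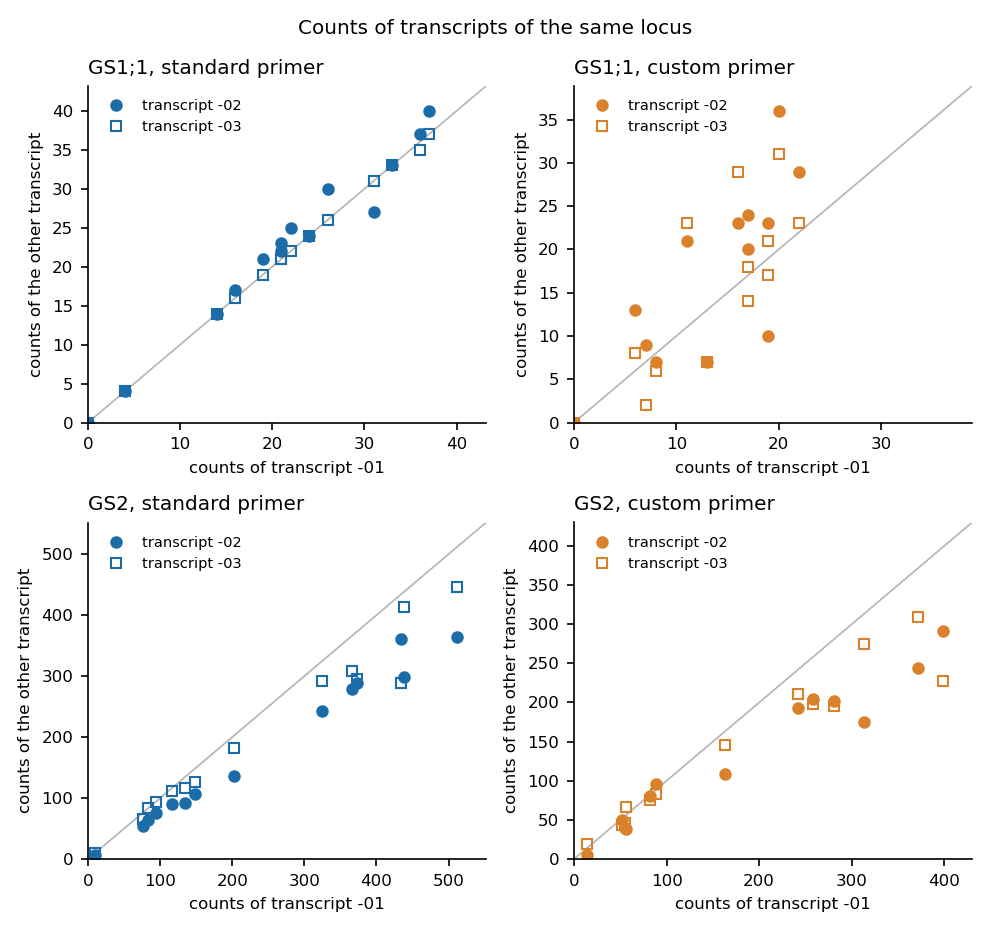
Counts of 2 transcripts of GS1;1 (top) and GS2 (bottom) against those of transcript -01 of the same locus, 1 point per library, for the standard (blue) and the custom primer (orange); the grey line marks equal counts. The GS1;1 points follow the line in the standard table and scatter around it in the custom table.

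Within Fd-GOGAT, transcript -02 took 71.6% of the counts with the standard primer and 71.9% with the custom primer. Transcript -01 took its highest share in replicate 2 of the biotin variation without DMS in both readings, 50.0% and 47.4%, which rest on 18 of 36 and 27 of 57 counts. Among libraries with over 50 counts of the locus, its highest standard-primer share was 33.3%, in Circligase. Within GS2, transcript -01 led with 38.5% and 39.6%, followed by -03 with 32.9% and 31.6% and -02 with 28.6% and 28.8%. The order of the GS2 and Fd-GOGAT transcripts was thus the same in both tables. The 3 transcripts of GS1;1 took 32.9%, 34.3% and 32.8% in the standard table and 29.4%, 37.2% and 33.4% in the custom table.

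Loci with patterns like those of GS2 and Fd-GOGAT were sought among 531 loci with a mean of at least 50 counts, by Pearson's r of log2 CPM over the 14 standard-primer libraries, with r over the 13 custom-primer libraries beside it. For Fd-GOGAT the nearest were OS04T0645100 (0.978 and 0.893), OS06T0669400 (0.976 and 0.866) and OS03T0655400 (0.944 and 0.923). For GS2 they were OS04T0549600 (0.949 and 0.896), OS01T0803200 (0.948 and 0.768) and OS05T0231700 (0.933 and 0.386). The last did not keep its likeness in the second reading. All points share the libraries and their scaling, and the 4 biotin variation libraries, in which GS2 and Fd-GOGAT were low, weigh in each r.

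A list of 14 further loci of nitrogen uptake and assimilation, compiled for the present work and carrying no names in the files, was followed in the same fits, and 8 of the 14 passed the filter. For the biotin variation against the standard protocol 1 rose, OS04T0543900 (log2 change 1.87, SE 0.40, edgeR adjusted p = 0.0374), opposite in sign to GS2 and Fd-GOGAT, and 0 fell, with 5 of the 8 at an unadjusted p under 0.05 and, by DESeq2, 1 higher and 2 lower. The background was 2.98% of all loci by edgeR and 16.3% by DESeq2, and it was not counted for the unadjusted p. The list median was -0.98 beside -0.33 over all loci. The same locus had 212 and 267 CPM without DMS and 121 and 129 CPM with DMS in the standard protocol, and 1028, 992, 519 and 360 CPM in the biotin variation, so the protocols did not overlap.

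For DMS in the standard protocol 1 of the 8 fell, OS08T0468100, from 1187 and 1096 CPM to 121 and 38.3 CPM, a log2 change of -3.91 with an SE of 0.66 (edgeR adjusted p = 0.0285), where the background was 0.106% of all loci. The list median was -0.88 beside 0.02 over all loci, and 3 of the 8 had an unadjusted p under 0.05, a share not counted over all loci. In the biotin variation this locus had 0 counts in both untreated libraries and 32.1 and 108 CPM with DMS, and it passed for the difference of the DMS effect (edgeR adjusted p = 0.0355; background 0.0754%), the size of which is not fixed against 0 counts. GS2 and Fd-GOGAT stood at -0.11 and 0.27 with DMS in the same libraries of the standard protocol. For DMS in the biotin variation 0 of 8 passed with edgeR, against 0.136% of all loci. Of the 8, 5 had an unadjusted p under 0.05, and DESeq2 called 1, against 1.77% of all loci. For DMS in both protocols 0 of 8 passed with edgeR, against 0.0181% of all loci. Here 2 of the 8 had an unadjusted p under 0.05, and DESeq2 called 2, against 3.2% of all loci. The share of all loci at an unadjusted p under 0.05 was not counted in these comparisons either. Between primers 2 rose and 4 fell of the 10 tested, against a background of 39.4% of all loci, and the uncertainty about counting described above limits these signs too.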

How the data were processed

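Read counts from 27 Structure-seq2 samples of rice shoots were analysed, which are 14 libraries read with a standard primer and 13 of them read again with a custom primer. The authors deposited whole-number counts per transcript, 1 table per primer, with columns named by library letters; 0 columns belonged to other samples. Cutadapt and Bowtie2 are named, without versions, per the submitters' processing notes, while genome build, annotation and counting rule were not given in the sources used here. Sequences, transcript lengths and stops per nucleotide were not used here. The names of the members come from the list of loci used to choose them, not from the files.

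Transcripts were summed per locus. Loci reaching 10 counts in 2 or more fitted libraries entered the quasi-likelihood test of edgeR 4.0.16 (TMM factors, Benjamini-Hochberg adjustment over all loci, threshold 0.05; R 4.3.3, limma 3.58.1) on the standard-primer table. DMS within a protocol and the difference of its effects used all 14 libraries with 1 mean per kind; DMS in both protocols and the protocol comparison used the 8 replicated libraries with the other factor as a covariate; the comparison of primers used 13 libraries, each library being a block. Ratios were compared on log2 with 0.5 added to each count by exact permutation tests (scipy 1.17.1). A ratio of Fd-GOGAT to NADH-GOGAT1 was planned and not computed, since NADH-GOGAT1 was not analysed here, so ratio p-values were adjusted over 3 comparisons. The scripts were tested on simulated counts.

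The members and lists were chosen with earlier results of these data known. All members are named, of the 14 further nitrogen loci those past the threshold, and for likeness the 3 loci with the highest Pearson r of log2 CPM with a prior count of 2. Markers were 7 shoot loci and 1 root locus. Alternatives were RLE factors, library totals, no filter, transcripts fitted singly, DESeq2 1.42.0, the custom-primer readings, both readings summed, the replicate number as a block and leaving out each library; division by the number of transcripts and a fit of loci with 1 transcript were added after seeing the data. Totals of 29777 to 410068 counts limit the precision for sparse loci, and since no molecular identifiers are described, intervals cover counting error only.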

Additional observations from a re-analysis of the deposited data

Results flagged for a closer look

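Each of 40 groups of 4 libraries was searched for a library apart from the rest of its group by Dixon's criterion at 95%, and 3 groups held one; chance flags about 1 in 20 groups. The GS2 level of replicate 1 of the biotin variation without DMS, 580.8 CPM with the standard primer, lay far below the other 3 libraries of that protocol. By library totals, without TMM factors, it was 873 CPM beside 1694, 1385 and 1687 CPM, values to which the criterion was not applied. With the custom primer the same library was at 844 CPM, within the 799 to 1151 CPM of its protocol. The log2 ratio of GS2 to cytosolic GS in the same library with the custom primer, 6.27 with 0.5 added to each count, lay far above the others, and rests on 38 counts of GS2 and 0 of the cytosolic loci. The log2 ratio of replicate 2 of the standard protocol with DMS, 3.19 with the custom primer, lay below a group of 3 values that were close to each other.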

How the results depend on the processing

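For the biotin variation against the standard protocol, where 1 member passed, 2 passed with RLE factors, library totals, no filter, transcripts fitted singly, DESeq2, the custom-primer readings and the sum of both readings, and 0 to 2 when 1 library was left out. Of all loci those settings called, in that order, 5.44%, 5.55%, 2.46%, 9.3%, 16.3%, 11.7% and 4.38%, beside 2.98% in the main fit. With 1 library left out the share ran from 0.11% to 10%. The log2 changes of GS2 and Fd-GOGAT stayed negative in all of these. The differences between replicates 1 and 2 correlated weakly between kinds, at -0.07 to 0.16 over 6 pairs of kinds. The highest value, 0.16, was that of the standard protocol without and with DMS. These correlations do not settle whether the replicate numbers pair the libraries. With the replicate number as a block 0 members and 15 loci in all passed, at -1.23 for GS2 and -1.50 for Fd-GOGAT (edgeR adjusted p = 0.0786 and 0.0749). Loci called in all ran from 6 to 901 in this comparison, 2 to 77 for DMS in the standard protocol, 0 to 567 for DMS in the biotin variation, 0 to 276 for their difference, 0 to 177 for DMS in both protocols and 980 to 4096 between primers.

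For DMS, the custom-primer readings called 1 member, GS1;2, in the biotin variation and in both protocols, with the limit of the filter given above. Leaving out 1 library gave 0 to 2 in the biotin variation and for the difference of the DMS effect. None of the following sign changes was of a called value, and their cause was not tested. GS1;1 turned for DMS in both protocols with library totals (-0.0199), transcripts fitted singly (-0.0229) and the custom-primer readings (-0.0611), and ran from -0.30 to 0.85 with 1 library left out. It turned for DMS in the biotin variation with RLE factors (-0.0594) and library totals (-0.21), with a range of -0.73 to 8.97, and for DMS in the standard protocol with the custom-primer readings (-0.24) and the sum of readings (-0.0204), with a range of -0.21 to 0.56. For the difference of the DMS effect it turned with RLE factors (-0.12), library totals (-0.34) and DESeq2 (-0.0211), with a range of -0.83 to 8.86. For the protocol it turned with transcripts fitted singly (0.0688), the custom-primer readings (0.55) and the sum of readings (0.14), with a range of -0.79 to 0.35. GS2 turned for DMS in both protocols with the custom-primer readings (-0.10; range -0.0840 to 0.36) and in the standard protocol without a filter (0.0459; range -0.21 to 0.18), and Fd-GOGAT for the difference of the DMS effect with library totals (-0.0828).

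Between primers the called changes of GS2 and GS1;1 turned to 0.29 and 0.29 when standard sums were divided by the number of transcripts, and a fit of loci with 1 transcript called 0 members, since GS1;2 alone could be tested there. The log2 ratio of GS2 to cytosolic GS turned to 0.0214 between primers with GS1;1 alone as the cytosolic locus. With 1 library left out it ran from -1.19 to 0.17 for the protocol and from -1.86 to 0.18 for DMS. Depth limits GS1;2 and every value of the library with 29777 counts.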
